A study of Homo sapiens with 33 samples.

Results

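Regions with anti-HA peaks in cells expressing wild-type MITF, at the ends of protein-coding genes, were described across 11 groups of UACC-257 cells, an established human melanoma line. MITF was profiled by CUT&Tag, in which an antibody bound to chromatin brings a transposase that cuts and tags the DNA beside it; the antibody was against the HA tag, so it was directed at tagged protein. All groups carried an MITF knockdown and were treated with doxycycline, per the labels. Groups were named for the MITF form they expressed: G244E and K243A, Y253A and E260A, Q261A, A264C and N278D, rep217A and rep263A, and wild type (WT). The last group was an Empty control. The labels do not spell out the changes, nor say whether replicates were separate cultures, so p-values here speak of the spread among these libraries alone. Each group had 3 peak lists, but replicate 3 repeated the values of replicate 2 in rep217A, and again in rep263A. These groups therefore count 2 libraries each, and the study 31 distinct ones.

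A WT region was an interval on chromosomes 1 to 22 or X covered by peaks with a −log10 q of at least 5 in at least 2 of the 3 WT lists. A gene-end region was one whose midpoint lay within 1000 bp of either end of a RefSeq protein-coding gene. There were 12619 gene-end regions among 64917 WT regions, or 19.4%. The others were 27513 regions inside genes and 24785 between genes. The WT lists chose the regions, so WT values on them are descriptions, and each test below scores a WT library only on regions chosen from the other 2 WT libraries.

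MITF is a basic helix-loop-helix leucine zipper protein of the family that includes TFEB and TFE3. It binds DNA as a dimer at E-boxes, mainly CACGTG and CATGTG, and a T before these letters is known to favour binding by the family. In melanocytes and melanoma it is known for driving pigment genes and genes of the lysosome, melanosome, survival and cell cycle. The start of an active gene is also open chromatin, where a transposase can cut with or without a bound factor, and the Empty control is the measure of such signal here.

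The 6 promoter windows printed here show the range that the values below describe: a region that led every WT list without an E-box, regions with 1, 2 or 3 E-boxes that led in WT, and regions listed in no G244E or no Empty library. The sequences are the 250 bases before the annotated start, from RefSeq on GRCh38.p14, written 5′ to 3′ on the gene's strand, with CACGTG and CATGTG (or CACATG, its other strand) in capitals.
PGK1 (chrX:78103998-78104247, plus strand): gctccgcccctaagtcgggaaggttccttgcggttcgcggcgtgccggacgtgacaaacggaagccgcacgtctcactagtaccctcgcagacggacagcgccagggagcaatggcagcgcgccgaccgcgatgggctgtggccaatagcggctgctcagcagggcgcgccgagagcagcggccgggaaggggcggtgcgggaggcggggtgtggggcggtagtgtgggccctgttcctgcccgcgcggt
NAPA (chr19:47515064-47515313, minus strand): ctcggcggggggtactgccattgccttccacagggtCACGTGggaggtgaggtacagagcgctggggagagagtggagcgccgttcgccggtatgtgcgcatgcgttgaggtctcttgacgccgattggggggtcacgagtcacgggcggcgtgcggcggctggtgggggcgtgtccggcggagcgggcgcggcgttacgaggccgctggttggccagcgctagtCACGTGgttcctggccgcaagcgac
RRAGC (chr1:38859773-38860022, minus strand): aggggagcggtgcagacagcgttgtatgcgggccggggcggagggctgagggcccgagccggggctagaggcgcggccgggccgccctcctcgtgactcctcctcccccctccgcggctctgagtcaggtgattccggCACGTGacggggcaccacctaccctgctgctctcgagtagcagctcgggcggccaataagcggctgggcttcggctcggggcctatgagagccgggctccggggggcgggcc
ERP29 (chr12:112013176-112013425, plus strand): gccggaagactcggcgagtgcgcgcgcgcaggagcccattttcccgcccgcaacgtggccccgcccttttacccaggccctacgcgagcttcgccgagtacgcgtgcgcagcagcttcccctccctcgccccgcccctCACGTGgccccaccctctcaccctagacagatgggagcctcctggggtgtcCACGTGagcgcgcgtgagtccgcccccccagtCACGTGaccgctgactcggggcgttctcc
GLMP (chr1:156295680-156295929, minus strand): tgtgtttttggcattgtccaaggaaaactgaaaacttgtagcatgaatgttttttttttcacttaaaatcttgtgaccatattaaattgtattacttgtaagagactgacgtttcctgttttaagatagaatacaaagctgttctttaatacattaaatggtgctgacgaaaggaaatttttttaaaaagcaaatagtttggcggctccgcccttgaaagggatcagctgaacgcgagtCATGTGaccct
BIRC7 (chr20:63235655-63235904, plus strand): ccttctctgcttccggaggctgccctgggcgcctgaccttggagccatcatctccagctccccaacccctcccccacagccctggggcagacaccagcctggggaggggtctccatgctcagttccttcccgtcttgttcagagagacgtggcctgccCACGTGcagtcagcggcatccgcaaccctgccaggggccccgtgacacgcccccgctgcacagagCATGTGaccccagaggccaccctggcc

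The E-boxes began 214 and 25 bases before the start in NAPA, 112 in RRAGC, 112, 61 and 29 in ERP29, 11 in GLMP and 92 and 27 in BIRC7. PGK1, which encodes a glycolytic kinase, had none.

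Gene-end regions sat mostly at starts. Where the promoter table gave a gene's strand, 9379 members lay nearest a start and 1006 nearest a far end, so 90.3% were at starts; 2234 had no strand used. Of 15812 genes with a known strand, 9322 (59.0%) had a region at the start and 1361 (8.61%) at the far end. Over all 19974 protein-coding genes, 11827 (59.2%) had a region at an end. The median distance from midpoint to end was 166 bp, and 64.0% of the members lay within 250 bp. Some members reached more than 1 gene end: 2200 (17.4%) lay within 1000 bp of 2 or more ends and 1236 of 2 or more starts. Both ends of 1 short gene count as 2 ends there. Gene-end regions were wider than the rest of the WT regions, with a median of 733 bp against 442 bp inside genes and 443 bp between genes. They were covered in all 3 WT lists in 89.2% of cases, against 78.1% inside genes and 77.9% between genes. The share of WT regions at gene ends ran from 11.97% on chromosome 13 to 37.8% on chromosome 19.

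**Figure D1:**
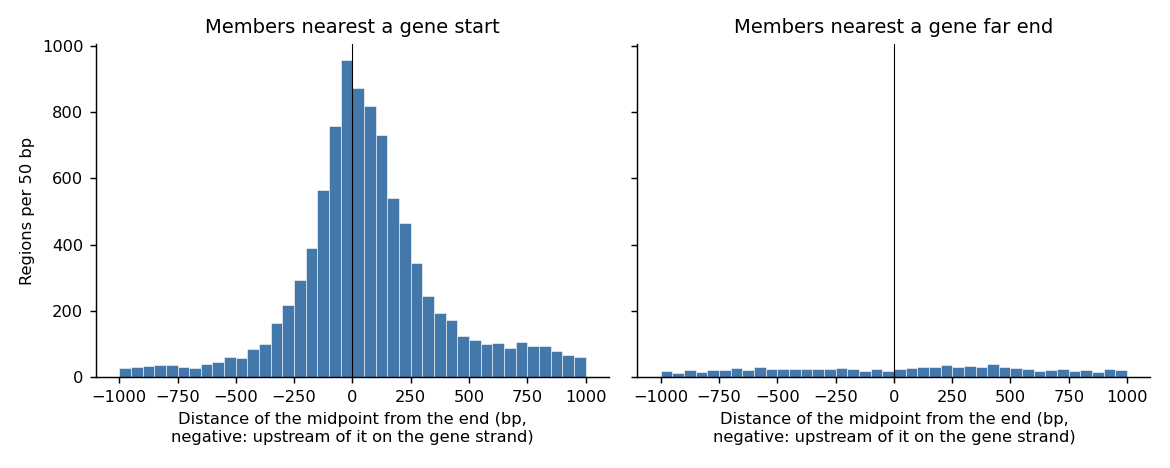
Number of gene-end regions per 50 bp by the distance of their midpoint from the nearest gene start (left) or far end (right), in bp, negative upstream on the gene's strand. The 9379 regions at starts peak at the start itself, and the 1006 at far ends show no such peak, with 13 to 40 in each 50 bp.

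Values just inside and outside both limits are given as a description. The 322 members 900 to 1000 bp from an end had a median WT rank of 37869, and the 322 regions 1000 to 1100 bp away had 39576. A region's rank is its place among all 64917 WT regions by its best −log10 q in a library. It was averaged over the libraries of a group. Tied regions share the best of their places, and unlisted regions tie below all listed ones. A region listed in no library thus had a mean rank of 21827 in Empty, 44558 in G244E, 47927 in rep217A, 48407 in K243A and 61648 in E260A. Ranks of different groups are therefore not on 1 scale. The 521 members whose second-best WT −log10 q was 5 to 6 had a median width of 228 bp, and the 739 gene-end regions that a limit of 4 would add had 198 bp.

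The libraries differed in depth. Relative depth, recovered from the deposited fold and p of the peaks, was 0.697 to 1.49 in A264C, E260A, N278D, Q261A, Y253A and WT, 0.427 to 0.487 in rep263A, 0.276 to 0.348 in rep217A, 0.132 to 0.244 in K243A, 0.108 to 0.151 in G244E and at most 0.03 in Empty. Lists held 81488 to 300000 peaks, and the −log10 q of the 10000th peak was 77.0 or higher in those 6 deeper groups but 1.63 to 1.87 in Empty. The lists also differed in their weakest peaks, those with a recovered height (pileup) of 1 at the summit. Such peaks made up 60.7% to 67.6% of each Empty list. By order of replicate they were 52.8%, 58.8% and 0% for G244E, and 54.7%, 0% and 0% for K243A. Every other group had 0%. A listed peak was therefore not an equal call in every list, even within G244E or K243A. A gene-end region not listed in G244E, K243A, rep217A or Empty need not be unbound, and the part of depth in single unlisted regions was not tested.

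Most gene-end regions had a listed peak, of any height, in each library of each variant. A larger share of them than of other WT regions had one in Empty. Shares of all WT regions are given in brackets as the background. A264C overlapped 96.9% of members in all of its libraries (95.6%), E260A 94.9% (90.7%), N278D 95.6% (94.6%), Q261A 93.8% (90.5%), Y253A 95.9% (93.5%), rep263A 91.9% (89.4%) and WT 97.4% (96.7%). The shares were lower in G244E at 75.7% (49.7%), K243A at 79.5% (56.3%) and rep217A at 81.6% (64%), and lowest in Empty at 34.1% (13.4%). Members without a peak in any library were 4.80% in G244E (13.3%), 3.23% in K243A (8.61%), 7.08% in rep217A (16.4%) and 17.7% in Empty (42.7%). In the other variants they were 0.269% in A264C (0.262%), 0.911% in E260A (1.67%), 0.658% in N278D (0.682%), 0.682% in Q261A (1.09%), 0.483% in Y253A (0.909%) and 2.32% in rep263A (2.5%). In A264C, N278D and rep263A members and background were near each other, and in the others gene-end regions were missed less often than WT regions as a whole.

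A set of 4157 members (32.9%) was listed in all 31 libraries, against 7.34% of the other WT regions and 12.3% of all WT regions. Only 452 members (3.58%) were listed in every library of the other 10 groups and in none of Empty, against 5.85% of the other WT regions and 5.41% of all.

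Scored on held-out regions, gene-end overlap was lower in 3 variants than in WT. These regions still came from the other WT libraries, and regions found only in a variant could not enter. The choice of regions therefore favoured WT over every other group, and its part in the differences below was not tested. G244E overlapped 87.5% ± 0.892 of gene-end regions and WT 99.1% ± 0.367 (SD, n = 3 each). The difference was -11.6 percentage points (permutation p = 0.00139, two-sided). This and all p-values below are adjusted over the 10 comparisons with WT, or over 9 where Empty was left out. K243A overlapped 90.3% ± 1.87 (n = 3), a difference of -8.84 (permutation p = 0.00207), and rep217A 88.8% ± 0.799 (n = 2), a difference of -10.3 (permutation p = 0.00199). The values of these libraries, 86.9% to 92.5%, all lay below the lowest WT library at 98.7%. A264C (99.2%), E260A (98.2%), N278D (98.5%), Q261A (97.9%), Y253A (98.8%) and rep263A (96.1%) did not pass the test. All libraries of E260A (at most 98.56%), Q261A (at most 98.66%) and rep263A (at most 96.2%) still lay below the lowest WT library, at 98.73%. The test used 1 spread pooled over all groups, and Empty had the widest SD, 4.17. WT exceeded Empty, at 59.2% ± 4.17 (n = 3), by 39.9 percentage points (permutation p = 1e-05, the smallest the resamples can give). Depth moved with these values. Thinned to a common depth, with Empty left out, G244E, K243A and rep217A gave -4.41, -3.22 and -9.46 and passed the test (permutation p = 4e-05, 0.00144 and 1e-05). Thinned to the depth limit of Empty, G244E and K243A gave -3.24 and -2.55 and did not pass (permutation p = 0.165 and 0.348), while rep217A gave -11.4 and did (permutation p = 0.00014). A fixed limit on −log10 p after scaling to a common depth, again without Empty, turned G244E and K243A to 10.7 and 8.76 (permutation p = 0.00579 and 0.023). It left rep217A at -9.22 (permutation p = 0.0332). Without replicate 1 of every group, K243A and rep217A gave -8.54 and -9.93 (permutation p = 0.0517 and 0.0519), and without replicate 2, G244E, K243A and rep217A gave -11.3, -8.21 and -10.8 (permutation p = 0.0547, 0.0896 and 0.0742).

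**Figure D2:**
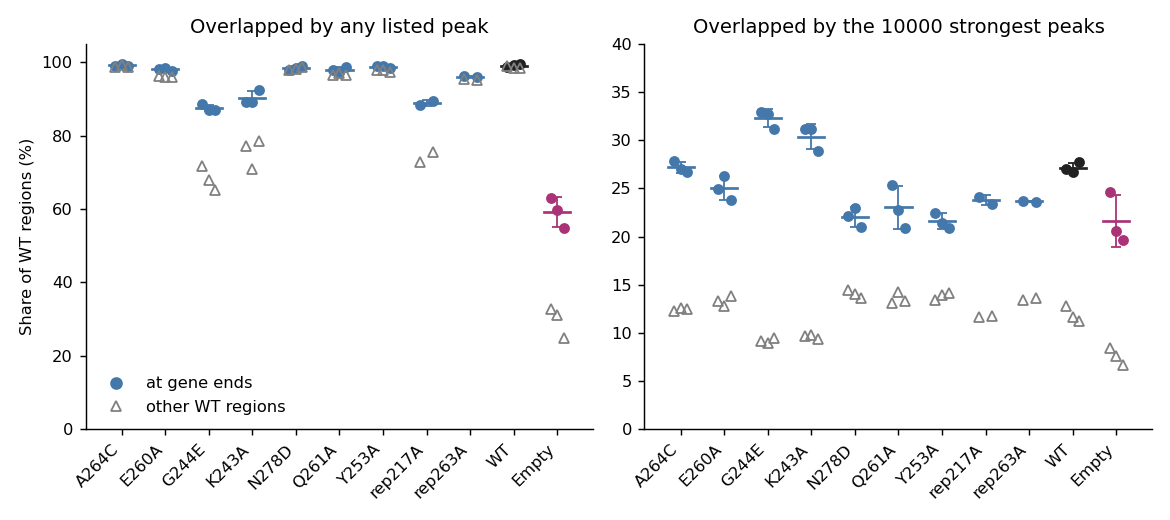
Share of WT regions (%) overlapped in each library by any listed peak (left) and by its 10000 strongest peaks (right), with gene-end regions as filled circles, their group mean and SD as bars, and the other WT regions as open triangles. In G244E 86.9% to 88.6% of gene-end regions were overlapped by any peak, against 98.7% to 99.4% in WT; by the strongest peaks the order of these groups was the other way round.

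The 10000 strongest peaks of each library, those of highest −log10 q, compare what each library ranked highest. G244E had 32.3% ± 0.939 of the gene-end regions among them and WT 27.2% ± 0.5001 (SD, n = 3 each), 5.13 percentage points more (permutation p = 0.00138), but -0.0844 when peaks had to cover 50% of a region (permutation p = 1). N278D had 22.0% ± 1.02, Y253A 21.6% ± 0.819 and Q261A 23.04% ± 2.24 (n = 3 each), differences of -5.13, -5.55 and -4.12 (permutation p = 0.00136, 0.00053 and 0.0107). K243A had 30.4% ± 1.31 (n = 3), a difference of 3.23 (permutation p = 0.0583). It missed the threshold, as did E260A, rep217A, rep263A and A264C. WT exceeded Empty, at 21.6% ± 2.68 (n = 3), by 5.57 (permutation p = 0.0005). That difference was -1.98 with the 5000 strongest peaks (permutation p = 0.0171) and -3.61 when peaks were ranked by fold (permutation p = 0.00298). Without replicate 2 the differences of G244E (4.68), N278D (-5.83), Q261A (-4.21), Y253A (-5.70) and WT minus Empty (5.26) kept their direction and missed the threshold (permutation p = 0.152, 0.0587, 0.223, 0.0654 and 0.0933), as did Q261A without replicate 3 (-2.79, permutation p = 0.177). Recovered in every library were 22.2% of members in A264C (11.5% of all WT regions), 19.3% in E260A (10.9%), 22.0% in G244E (7.99%), 21.3% in K243A (8.36%), 17.0% in N278D (11%), 16.8% in Q261A (10.4%), 17.1% in Y253A (11.2%), 18.7% in rep217A (10.1%), 19.6% in rep263A (11.7%), 21.7% in WT (10.9%) and 6.42% in Empty (2.11%). In each single library, too, gene-end regions were recovered more often than other WT regions: 31.2% to 32.9% against 8.97% to 9.48% in G244E, 21.0% to 22.98% against 13.7% to 14.4% in N278D, 26.7% to 27.7% against 11.2% to 12.8% in WT, and 19.6% to 24.6% against 6.71% to 8.40% in Empty. The regions compared were not matched for width or for WT rank. The median WT rank was 20330 at gene ends, 36269 inside genes and 36800 between genes.

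The rank position uses all listed peaks. It is the percentage of pairs of a gene-end and another WT region in which the gene-end region had the higher −log10 q, and 50 means no preference. It was 71.1 ± 0.486 in G244E and 70.0 ± 0.506 in K243A, against 65.6 ± 2.29 in WT (SD, n = 3 each), 5.50 and 4.44 higher (permutation p = 0.00046 and 0.0041). It was 58.7 ± 0.618 in N278D, 59.9 ± 1.40 in Y253A and 60.7 ± 2.31 in Q261A (n = 3 each), and 59.7 ± 0.269 in rep263A (n = 2). These were lower than WT by differences of -6.87, -5.73, -4.91 and -5.85 (permutation p = 3e-05, 0.00027, 0.00152 and 0.00072). Empty, at 65.7 ± 0.648 (n = 3), gave a WT minus Empty difference of -0.16 (permutation p = 1). Another setting kept only peaks that met a limit after scaling to a common depth, and left out Empty. Ranks there still used the deposited −log10 q. Q261A and rep263A then gave -2.33 and -2.37 and no longer passed (permutation p = 0.0852 and 0.133). N278D and Y253A gave -3.32 and -3.44 and did (permutation p = 0.0107 and 0.00821). Ranked by fold, rep263A gave -2.88 and did not pass (permutation p = 0.106). The higher values of G244E and K243A depended on how overlap was counted. When a peak had to cover 50% of the region the differences from WT were -2.66 and -1.28 (permutation p = 0.246 and 0.906), and with peaks of −log10 q of at least 5 only they were 2.17 and 2.61 (permutation p = 0.348 and 0.184). With peaks that cover 50% of the region, WT exceeded Empty by 13.5 (permutation p = 1e-05). Leaving out replicate 1 ended the call of K243A (3.59, permutation p = 0.0879), leaving out replicate 2 those of K243A (4.34), Q261A (-3.95) and rep263A (-5.72) (permutation p = 0.114, 0.163 and 0.0829), and leaving out replicate 3 those of Q261A (-3.49) and Y253A (-3.99) (permutation p = 0.114 and 0.0609).

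The groups were further apart at starts than at far ends, though that contrast was not tested. Of members nearest a start, 34.4% ± 1.05 were among the strongest peaks in G244E, 22.8% ± 1.12 in N278D and 28.1% ± 0.320 in WT (SD, n = 3 each). Of members nearest a far end, the shares were 11.5% ± 0.358 in G244E, 12.7% ± 0.5003 in N278D and 11.6% ± 0.344 in WT.

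E-boxes separated WT and A264C from every other group. Promoter windows of 300 bases, from 250 before to 50 after a start, were searched for TCACGTG and TCATGTG on both strands. Of 22132 windows, 1468 (6.63%) held one; 8.01% of the 10396 windows overlapped by a member did, against 5.41% of the rest. The 2 forms went opposite ways: TCACGTG stood in 6.70% of member windows and 2.44% of the rest, TCATGTG in 1.48% and 3.05%. The other strand of CATGTG reads CACATG, and a T before that (TCACATG) was not searched for. Windows with TCACATG alone therefore count as holding neither form, here and in the measures below. CATGTG on either strand, with any letter before it, stood in 6.06% of member windows and 11.5% of the rest. Member windows were richer in GC, with a median of 66.3% against 56.7%, and in CpG, with 28 against 9. A window overlapped 7984 of the 12619 members, and 703 of these had TCACGTG or TCATGTG. From here on, with an E-box means with either of these 2 forms. Members without it can still hold CACGTG or CATGTG. Of the 7984, 1003 had CACGTG and 584 TCACGTG, and 572 had CATGTG and 137 TCATGTG.

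Among these 7984 members, the share with an E-box was highest at the top WT ranks. It was 24.8% in the strongest 1 of 10 equal classes of WT rank, 17.5% in the next and 3.63% in the weakest. CCAAT, the box bound by NF-Y, ran from 48.6% to 28.9%. CCGGAAG, an ETS-type sequence, ran from 23.4% to 17.9% and CAGCTG, an E-box that MITF is not known to prefer, from 17.8% to 20.1%. In all windows CCAAT stood in 34.6%, CCGGAAG in 12.8% and CAGCTG in 18.0%. A match says only that these letters stand in the window.

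**Figure D3:**
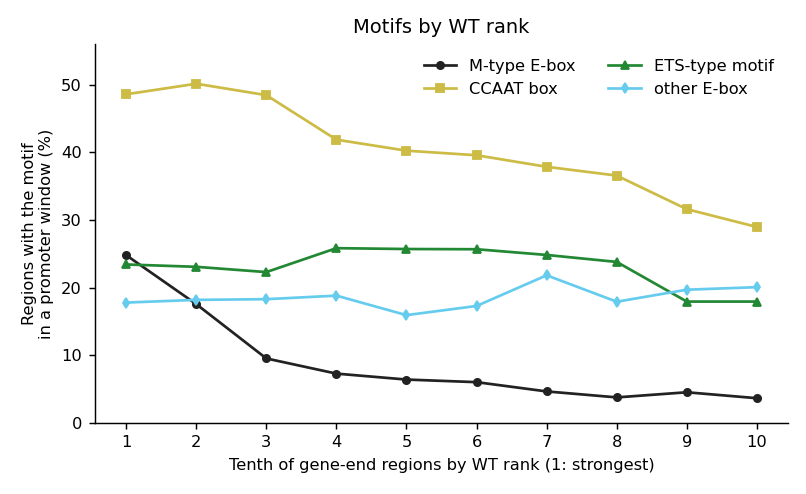
Share of gene-end regions with a motif in a promoter window (%), by 10 equal classes of WT rank from strongest to weakest, for the E-box forms with T in front (black), the CCAAT box, an ETS-type motif and another E-box. The black line starts at 24.8% and ends at 3.63%.

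The E-box rank position, the percentage of pairs of a gene-end region with and without TCACGTG or TCATGTG in which the one with the E-box ranked higher, was tested on held-out regions. It was 70.2 ± 0.195 in A264C and 70.1 ± 0.127 in WT (SD, n = 3 each), a difference of 0.11 (permutation p = 1). It was 60.4 ± 0.267 in E260A, 61.2 ± 0.0829 in N278D, 61.4 ± 0.819 in K243A, 62.4 ± 0.350 in Y253A and 63.1 ± 0.435 in Q261A (n = 3 each). In groups of 2 libraries, rep217A had 58.2 ± 0.911 and rep263A 62.4 ± 0.289. Values were lowest of the variants in G244E, at 54.9 ± 0.314 (n = 3). WT exceeded Empty, at 50.7 ± 0.469 (n = 3), by 19.4. Each of these 8 variants and Empty differed from WT with a permutation p of 1e-05, and no library of theirs overlapped the WT range of 70.0 to 70.2. Across the other settings run for this measure, the G244E difference stayed between -16.4 and -7.23, and that of A264C between -0.135 and 0.267. With CATGTG in place of both longer forms, Q261A (-0.713), Y253A (-0.383) and rep263A (-1.37) missed the threshold (permutation p = 0.507, 0.959 and 0.0722), and the differences of E260A (-1.67), N278D (-1.43) and rep217A (-2.45) were smaller but passed (permutation p = 0.00962, 0.0306 and 0.00062).

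**Figure D4:**
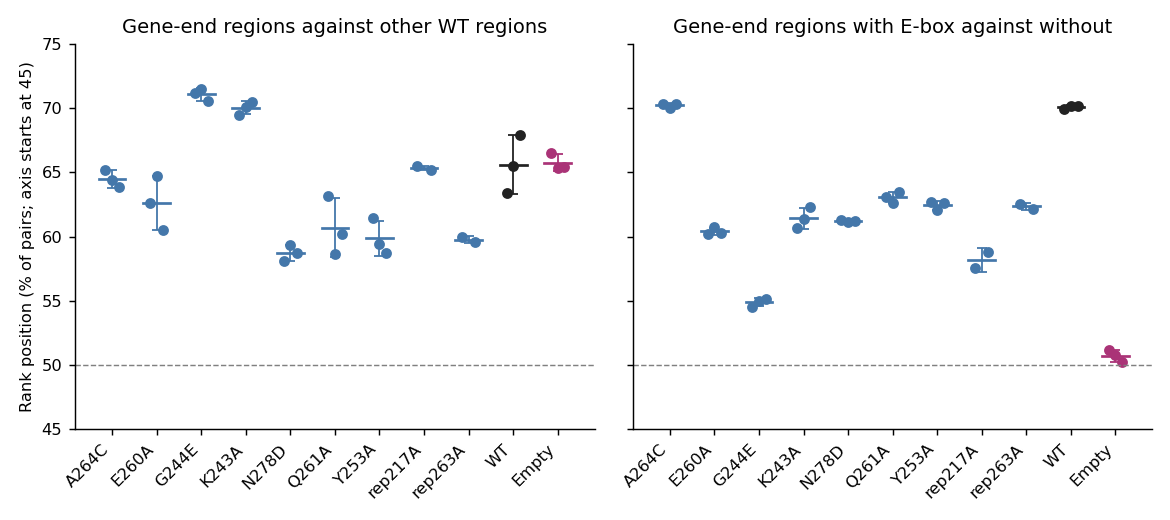
Rank position per library (circles) with group mean and SD (bars). The left panel sets gene-end against other WT regions. The right panel sets gene-end regions with TCACGTG or TCATGTG against those without. The vertical axis starts at 45, and the dashed line at 50 marks no preference; on the right A264C and WT lie at 70.0 to 70.3 and all others at or below 63.5.

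The share of strong regions shows the same pattern in plain terms. With an E-box, 59.98% ± 1.01 of members were among the strongest peaks in A264C, 47.2% ± 1.79 in G244E, 38.4% ± 1.86 in N278D and 60.3% ± 0.833 in WT (SD, n = 3 each). Without one, 29.4% ± 0.510 were in A264C, 38.5% ± 1.27 in G244E, 24.4% ± 1.45 in N278D and 29.2% ± 0.265 in WT. In Empty the shares were 27.9% ± 3.87 with and 26.3% ± 3.13 without (n = 3). More copies of CACGTG went with a higher share. In G244E it was 57.1% ± 1.04 of the 111 members with 2 or more, 45.7% ± 1.55 of the 892 with 1 and 38.1% ± 1.33 of the 6981 with none. In WT the same 3 shares were 76.0% ± 1.04, 50.6% ± 0.388 and 28.9% ± 0.276, so the step from none to several was wider than in G244E. In Empty they were 33.9% ± 3.75, 26.7% ± 4.46 and 26.3% ± 3.06.

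The T-led forms are given singly as descriptions over the members as chosen. TCACGTG members had a rank position of 57.9 in G244E, 63.9 in K243A, 59.1 in rep217A, 71.7 in WT and 52.3 in Empty. TCATGTG members had 43.3 in G244E, 51.6 in K243A, 56.1 in rep217A, 61.7 in WT and 43.9 in Empty. Below 50, members with these letters ranked below the others. CCAAT members had 56.4 to 59.4 in all 11 groups.

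Genes of the lysosome and of pigment cells were described by lists chosen with earlier results of these data known. A gene counted as strong in a group when a region at one of its ends was among the 10000 strongest peaks of every library, which is easier to meet in rep217A and rep263A with 2 libraries. Of all protein-coding genes, 16.8% were strong in A264C, 16.7% in G244E, 16.1% in K243A, 12.6% to 14.7% in the other variants, 16.7% in WT and 5.16% in Empty. The lists are selections and not whole classes of genes, and no test was made of them. Genes named as a list's highest in WT were picked by WT rank, which favours a lower place in the other groups.

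All 15 listed genes of the V-ATPase, the proton pump that acidifies lysosomes and melanosomes, had a gene-end region. Of these, 14 were strong in A264C, 11 in each of E260A, K243A, Q261A, rep217A and rep263A, 10 in Y253A, 9 in N278D, 8 in G244E, 14 in WT and 0 in Empty. The list's 3 highest in WT were ATP6V1G1, ATP6V0D1 and ATP6V1B2, which encode subunits of the pump. ATP6V1G1 (chr9:114587288-114588097) had a mean rank of 276 in A264C, 2152 in G244E, 10.5 in rep217A, 319 in WT and 8367 in Empty. ATP6V0D1 had 594.3 in A264C, 4981 in G244E, 21.0 in rep217A, 441.3 in WT and 2792 in Empty. ATP6V1B2 had 636.3 in A264C, 1374 in G244E, 2158 in rep217A, 496.7 in WT and 6745 in Empty. All 3 were lower in the order in G244E than in WT, and their choice by WT rank favours such a fall. In rep217A ATP6V1G1 and ATP6V0D1 were higher than in WT and ATP6V1B2 was lower. ATP6AP1, an accessory subunit picked after its values were seen, was strong in 3 of 3 A264C, 0 of 3 G244E, 2 of 2 rep217A and 3 of 3 WT libraries.

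Of 24 listed lysosomal hydrolases and their activators, 21 had a gene-end region. Strong were 15 in A264C, 8 in G244E, 14 in WT and 1 in Empty, and 8 to 11 in the other variants. Its 3 highest in WT were NEU1, NAGLU and PSAP. NEU1, a lysosomal sialidase, had a mean rank of 233 in G244E, 21.5 in rep217A, 106 in WT and 301.7 in Empty. PSAP, which encodes the precursor of the saposins, had 1282 in G244E, 37.0 in rep217A, 924.3 in WT and 5521 in Empty. NAGLU, which degrades heparan sulfate, had 194.3 in G244E, 1712 in rep217A and 195 in WT, so G244E differed little from WT there. Of 20 listed lysosomal membrane and signalling genes, 19 had a region; 13 were strong in A264C, 6 in G244E, 12 in WT and 3 in Empty. RRAGC, PIP4P1 and FNIP1, the partner of folliculin, were its highest in WT. FNIP1 had a mean rank of 76.0 in A264C, 1072 in G244E, 62.0 in WT and 2764 in Empty. Over these 3 lists of 59 genes, 42 (71.2%) were strong in A264C, 22 (37.3%) in G244E, 24 (40.7%) in N278D, 28 to 31 in the other variants, 40 (67.8%) in WT and 4 (6.78%) in Empty.

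Of 18 listed pigment genes, 16 had a gene-end region, all but TRPM1 and GPR143. Strong were 9 in A264C, 4 in G244E, 6 each in K243A and rep217A, 8 in N278D, 9 in each other variant, 9 in WT and 1 in Empty. GPNMB, a melanosomal glycoprotein, had a mean rank of 706.3 in A264C, 8118 in G244E, 3644 in rep217A and 801.3 in WT, and was listed in 2 of 3 Empty libraries. HPS4, a subunit of a complex for melanosome biogenesis, had 1320 in A264C, 3556 in G244E and 1621 in WT. SLC45A2, a melanosomal transporter, had 1902 in A264C, 7063 in G244E and 2789 in WT. These 3 were the list's highest in WT, a choice that favours WT over other groups. All 3 were lower in the order in G244E than in A264C or WT. The rest of the list went both ways. SLC24A5 was lower in G244E, at 24819 against 4380 in WT. MYO5A, at 3182 against 6973, and MC1R, at 4461 against 7962, were higher in G244E. In Empty, MYO5A had 4386 and was among the strongest peaks in 3 of 3 libraries, and MC1R had 13232. PMEL, which encodes a melanosomal fibril protein and was picked after its values were seen, shared its region with CDK2 (619 and 740 bp away). That region had a peak in all 3 WT libraries, at a mean rank of 29223, and in no G244E or rep217A library.

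Among factors of the MITF family and others that bind E-boxes, 14 of the 15 listed had a gene-end region, and 6 were strong in A264C, 6 in G244E, 4 in WT and 1 in Empty. The highest in WT were MXD1, BHLHE40 and MAX. MXD1, a partner of MAX, had a mean rank of 206 in A264C, 133.3 in G244E, 214.7 in WT and 803 in Empty. BHLHE40, a repressor, had 343.3 in A264C, 959.3 in G244E and 226.7 in WT. All 18 listed autophagy genes had a region, 9 of them strong in A264C, 8 in G244E, 9 in WT and 2 in Empty. WIPI1, a phosphoinositide-binding autophagy protein, led with mean ranks of 41.0 in A264C, 323.3 in G244E, 76.7 in WT and 986 in Empty. VPS18 had 5409 in G244E, 139.5 in rep217A and 789.3 in WT, and MAP1LC3B, which encodes LC3B, 987 in G244E, 165 in rep217A and 806.7 in WT. All 15 listed DNA repair genes had a region, of which 7 were strong in A264C, 4 in G244E, 2 in N278D, 7 in Q261A, 7 in WT and 1 in Empty. APEX1, a base excision repair endonuclease from the list of survival and metabolism genes, had 812.7 in A264C, 1877 in G244E, 11363 in N278D, 657.7 in WT and 4015 in Empty. CDK4, the cell cycle kinase, had 92.3 in A264C, 227 in G244E, 556.7 in N278D, 82.3 in WT and 2506 in Empty.

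Markers of other cell types had few members: of those listed, 4 of 10 hepatocyte genes, 1 of 10 lymphoid genes (CD3E) and 1 of 10 keratinocyte genes (SPRR1B) had a gene-end region. None was strong in WT. CD3E was strong in every library of 6 variants and SPRR1B in every library of 3.

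All 24 listed ribosomal protein genes had a gene-end region, and 6 were strong in A264C, 6 in G244E, 9 in rep217A, 6 in WT and 4 in Empty. Of 16 listed housekeeping genes, 15 had a region, and 7 were strong in G244E, 7 in WT and 5 in Empty.

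**Figure D5:**
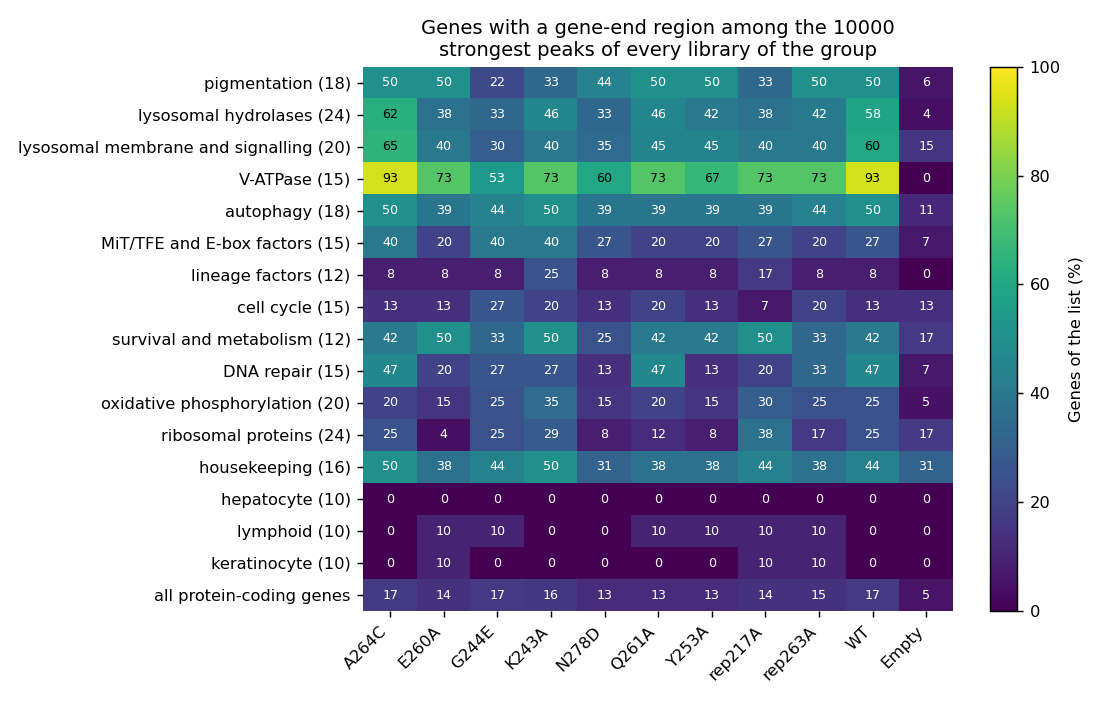
Percentage of the genes of each list (number of genes in brackets) with a gene-end region among the 10000 strongest peaks of every library of the group; rows are lists, columns groups, and the last row is all protein-coding genes. The V-ATPase row reads 93.3% in A264C, 53.3% in G244E, 93.3% in WT and 0% in Empty.

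The 20 members of highest WT rank were listed in every library of the study, Empty included. All 20 were among the strongest peaks in every library of every group but Empty, where 13 were. Of the 16 with a promoter window, 9 had the E-box. Among them were regions at PGK1, NAPA, ANKRD10, SYNCRIP, ZNFX1, AFG3L2, LITAF, THAP8 with WDR62, TRAPPC6A with BLOC1S3, DYRK1A, PHF1 with KIFC1, PATL1, RRAGC, PIP4P1, ERP29 with TMEM116, PC, LONP1 with CATSPERD, HINFP and FBRS.

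PGK1 (chrX:78103742-78104378) ranked 1 in every library of 9 groups. It ranked 5 in both rep217A libraries and 2, 1 and 3 in Empty. NAPA (chr19:47514760-47515692), which encodes a factor that disassembles SNARE complexes, ranked 259, 214 and 314 in G244E, 1 and 1 in rep217A, 2 in each WT library, and 621, 352 and 1403 in Empty. These 4 groups did not overlap, and rep217A alone placed it above PGK1. RRAGC (chr1:38859186-38860614) encodes a Rag GTPase that brings mTORC1 to the lysosome. It ranked 27, 32 and 28 in A264C, 280, 240 and 316 in G244E, 33, 24 and 46 in WT, and 14396, 12855 and 2478 in Empty. Its mean rank in the other variants was 124.5 in rep217A and 263.7 to 402.3 elsewhere.

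PIP4P1 (chr14:20461075-20462067), a lysosomal phosphoinositide phosphatase, ranked 1009, 1365 and 1062 in N278D, 139 and 128 in rep217A, 35, 36 and 40 in WT and 389, 1149 and 828 in Empty. ERP29 (chr12:112013075-112014360), a chaperone of the endoplasmic reticulum with 3 CACGTG in its window, ranked 41, 17 and 69 in K243A, 541 and 726 in rep217A, 58, 32 and 22 in WT and 1494, 2489 and 4308 in Empty. K243A overlapped WT there and rep217A did not.

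Of the 11255 members covered in all 3 WT lists, 1531 were listed in no Empty library, 434 in no rep217A library, 289 in no G244E library and 163 in no K243A library. The numbers were 73 in rep263A, 21 in E260A, 15 in Q261A, 9 in N278D, 6 in Y253A and 0 in A264C. The matching background among WT regions covered in all 3 lists was not computed. Over all WT regions, the share listed in no library was 42.7% in Empty, 16.4% in rep217A, 13.3% in G244E and 8.61% in K243A. Over all members it was lower, at 17.7%, 7.08%, 4.80% and 3.23%. GLMP (chr1:156295159-156295879), a lysosomal membrane glycoprotein gene with TCATGTG in its window, was the strongest in WT of those not listed in G244E. It ranked 3582 and 5160 in rep217A and 10420, 10198 and 9042 in WT, so rep217A placed it above WT. It was also not listed in 2 of 3 Empty libraries. The other 2 named for G244E lay at CYB5D1 and at CTDNEP1 with GABARAP, of which GABARAP is an autophagy gene, with mean WT ranks of 11207 and 11530. For K243A the 3 lay at DVL2 with ACADVL, at F2RL1, a protease-activated receptor, and at DDB1, a DNA damage-binding protein. For rep217A the 3 lay at LOC124900576, SLC27A1, a fatty acid transporter, and CANX, which encodes calnexin.

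For Empty the 3 lay at RAD51B, BIRC7 and XYLB. BIRC7 (chr20:63235405-63237062), an inhibitor of apoptosis, ranked 454, 574 and 467 in E260A, 9095, 10701 and 11976 in G244E, 5742, 2919 and 6338 in K243A, 26505 and 10064 in rep217A and 1778, 1156 and 959 in WT. E260A placed it above, and G244E, K243A and rep217A below, every WT library. By mean rank, N278D (612.3), Y253A (786) and A264C (920.7) also placed BIRC7 above WT (1298), and rep263A (1831) below. RAD51B, a recombination gene, had a mean rank of 26460 in G244E and 1273 in WT. At the far end of EPOR a narrow region of 210 bp was listed in all A264C and WT libraries and in none of the other 9 groups, at a mean WT rank of 37348.

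Members weak in WT but high in a variant were mostly narrow pieces. Of the 3 named for E260A, GPHN (173 bp) ranked 645, 592 and 762 in E260A, against 55132, 48324 and 30525 in WT. RHOQ with ATP6V1E2 (162 bp) ranked 722, 779 and 1384 in E260A, against 59464, 62418 and 2062 in WT. SCAND1 (159 bp) had a mean rank of 348.7 in E260A, where all 3 libraries held it among their strongest peaks, and ranked 679 and 55316 in WT, where 1 library did not list it. So 1 WT library placed SCAND1, and 1 placed RHOQ, among its strongest peaks. In E260A the best overlapping peaks were 985 to 1445 bp wide and their summits lay outside these regions in all 3 libraries. The same held in rep217A for TNFAIP1, which ranked 48357, 43762 and 2637 in WT, and for ARL6IP5, so these ranks belong to a wide peak that reaches the region. Where the summit lay inside in every library, ZNF808 (chr19:52527118-52527967), a KRAB zinc finger gene, ranked 4389, 2108 and 1426 in G244E, 22309, 18200 and 24040 in WT and 1681 and 1976 in Empty, where 1 library did not list it. SPATA33 with CHMP1A, the other of these in G244E, had mean ranks of 3320 in G244E, 21677 in WT and 7516 in Empty. By fold, G244E and WT overlapped at both regions. ZNF808 had a fold of 11.6 to 16.6 in G244E and 11.1 to 15.1 in WT. SPATA33 had 11.9 to 13.2 in G244E and 11.6 to 12.8 in WT. The part of depth in these ranks was not tested. The 3 members named for Empty had the summit inside in all 3 libraries. They lay at LOC124905351, with a mean rank of 34692 in WT and 900 in Empty, at ERCC1, a DNA repair gene, with 27390 in WT and 1231 in Empty, and at the histone genes H2AC6 and H2BC4, with 28774 in WT and 1841 in Empty.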

How the data were processed

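CUT&Tag peaks with an anti-HA antibody were deposited as 1 narrowPeak list per library, with coordinates on hg38. The tools named in the submitters' processing notes were MACS2, without a version, Bowtie2 2.3.4.3 and bcl2fastq 2.20.0.422. Columns deposited by the authors for every peak were the fold enrichment (a ratio), the −log10 p, the −log10 q (column 9) and the offset of the summit. No source used here says if a control library or duplicate removal entered the peak calls.

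Only peaks on chromosomes 1 to 22 and X entered. Gene spans came from RefSeq (GRCh38.p14), and strand and sequence from its promoter windows, which 15812 of 19974 protein-coding genes had. Overlap was at least 1 bp, and a region's value in a library was the highest −log10 q of the peaks on it. The members, gene lists and tests were chosen with earlier results of these data known. Named regions were the 20 of highest mean WT rank, up to 3 per group covered in all WT lists and listed in no library of that group, 3 per group of highest rank there among members in the lower part of the WT order (below its median), and the 3 highest of a list; others were picked after their values were seen.

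WT libraries were scored on regions from the other 2 WT libraries, and all others on the mean of the 3 pairs. Each group was compared with WT by a two-sided permutation test over the 31 distinct libraries (100000 resamples), with the pooled spread within groups and the highest statistic over 10 comparisons. Alternatives were the membership limit, gene-end distance, overlap, number of strong peaks, ranking by fold, E-box letters, depth, a replicate block and leaving out each replicate.

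Read totals were not used. Summit pileup and background were recovered from the deposited fold and −log10 p, assuming that MACS2 adds 1 to both; a whole-number pileup met 100% of peaks of −log10 p below 12 within 0.001, and the commonest background was taken as relative depth. Peaks scaled to the shallowest library other than Empty were kept from a −log10 p of 8, and thinned ones (1 binomial draw) from 2. Scaled peaks were still ranked by their deposited −log10 q, and thinned ones by their thinned −log10 p. Python 3.11, numpy, pandas, scipy and matplotlib were used, and the tools were tested on simulated data. Of the G244E lists, 2 held exactly 300000 peaks. Some named regions and genes are not reported here.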

Additional observations from a re-analysis of the deposited data

How the results depend on the processing

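Of 532 alternative values, 432 kept direction and side of the threshold, 28 kept direction but no longer passed, 31 newly passed and 41 changed sign. The E-box result held best, with 111 of 118 kept. Shallow libraries limit what a missing peak shows. Except where noted, the cause of a change was not tested. Differences are from WT, or WT minus Empty, in percentage points or rank position.

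Membership at a −log10 q of 10 gave K243A 4.21 strong and rep217A 1.08 in rank, and a distance of 500 bp gave K243A 4.03 strong and WT minus Empty 0.50 in rank. With 50% of the region covered, rep263A gave -8.27 in overlap; G244E gave -0.0844, rep217A -5.77 and rep263A -3.99 strong; G244E gave -2.66, K243A -1.28, rep217A -6.97 and WT minus Empty 13.5 in rank. Peaks of −log10 q of at least 5 gave rep263A -9.57 in overlap, and G244E 2.17, K243A 2.61 and WT minus Empty 14.1 in rank. The 5000 strongest peaks gave K243A 2.45, rep217A -2.28, rep263A -2.31 and WT minus Empty -1.98. Ranking by fold gave A264C -1.83, E260A -3.97, K243A 8.70, rep217A 1.84 and WT minus Empty -3.61 strong, rep217A 5.80, rep263A -2.88 (call lost) and WT minus Empty -7.37 in rank, and A264C -0.0125 for the E-box. Scaling to a common depth gave overlap differences of 3.91 in E260A, 10.7 in G244E, 8.76 in K243A, 6.63 in N278D, 6.71 in Q261A, 3.40 in Y253A and 5.63 in rep263A. It left out Empty, and with it the spread of Empty (SD 2.68 in strong recovery) from the pooled estimate. K243A 3.23, rep217A -3.38 and rep263A -3.50 strong, at unchanged values, then passed over 9 comparisons. The strongest peaks were still picked by the deposited −log10 q, so strong recovery was not checked for depth by this setting. In rank, scaling gave A264C 0.237, and Q261A -2.33 and rep263A -2.37, which no longer passed. CACGTG alone gave A264C -0.135, and CATGTG alone Q261A -0.713, Y253A -0.383 and rep263A -1.37.

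Some alternatives were chosen after seeing the data. Thinning to a common depth, also without Empty, gave E260A 0.772, N278D 1.46, Q261A 0.403 and Y253A 1.17 in overlap. It gave K243A 3.43, rep217A -3.01 and rep263A -3.52 strong. Thinning to the depth limit of Empty gave E260A 1.02, G244E -3.24, K243A -2.55, N278D 2.19, Q261A 1.21 and Y253A 1.78 in overlap, A264C -0.276, E260A -3.43, rep217A -5.38 and rep263A -3.98 strong, and WT minus Empty -3.43 in rank. The central 100 bases gave rep217A -4.02 and rep263A -3.69 strong, K243A 3.08 and WT minus Empty 4.84 in rank, and A264C -0.0149 for the E-box.

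Replicate numbers did not pair the libraries: in 24 pairs with WT, deviations correlated over 0.1 in 4 (-0.0600 to 0.155). With the replicate number as a block, K243A 3.23, rep217A -3.92 and rep263A -4.04 strong newly passed, and no other call changed.

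Leaving out each replicate number gave these ranges. In overlap they were -0.0467 to 0.313 in A264C, -12.3 to -11.2 in G244E, -9.76 to -8.21 in K243A, -10.8 to -9.93 in rep217A and -3.33 to -2.90 in rep263A. In strong recovery they were -0.316 to 0.546 in A264C, 4.68 to 5.94 in G244E, 2.63 to 4.26 in K243A, -5.83 to -4.33 in N278D, -5.35 to -2.79 in Q261A, -6.05 to -4.91 in Y253A and 4.303 to 7.14 for WT minus Empty. In rank they were -2.57 to 0.389 in A264C, -4.08 to -0.721 in E260A, 3.59 to 5.38 in K243A, -7.27 to -3.49 in Q261A, -7.63 to -3.99 in Y253A, -1.48 to 0.933 in rep217A, -7.15 to -4.67 in rep263A and -1.49 to 1.33 for WT minus Empty. For the E-box it was -0.0286 to 0.254 in A264C. Fewer libraries also raise p by construction, and a lone rep217A or rep263A library was assumed to vary like the others.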
